A study of Mus musculus with 4 samples.

Results

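Enzymes that build or break down triglyceride were followed in tumours that immunodeficient mice grew from MDA-MB-231, an established cell line of human breast cancer without hormone receptors or HER2 amplification. The genes were Gpam, Agpat2, Lpin1, Dgat1 and Dgat2 (synthesis), Gpd1 and Pcx (supply of precursors), and Pnpla2, Lipe and Mgll (breakdown). They were chosen on the measured sunitinib against vehicle difference of Dgat2, which was higher with sunitinib, so that this contrast is described for the 10 genes and carries no test of them. Probes were taken where the platform annotation gave exactly 1 gene symbol and that symbol was on the list, which gave 24 probes for 10 genes, of 45220 array features and 19087 named genes in all.

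The 4 tumour samples were from hosts treated with 40 mg/kg/day of sunitinib (2 samples), which blocks several receptor tyrosine kinases such as those for VEGF and PDGF, or with vehicle (2 samples). All the mice carried MDA-MB-231 tumours. The series title concerns the stopping of sunitinib, and the labels do not state when tumours were taken, the mouse strain, sex, age or the implantation site, or whether animals were pooled. The arrays carried mouse probes. They read the host cells of the tumour and any human transcript that binds a mouse probe, and how much human RNA contributed was not tested. Both groups had their replicate 1 on slide 1 and their replicate 2 on slide 2. Nothing in the labels says that replicates were separate animals, so that the spread between replicates may be technical. The SE given below are from limma, which draws the spread of each probe towards that of all probes. They can thus be smaller or larger than the spread of a probe on its own arrays.

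Triglyceride is assembled by adding acyl chains to glycerol 3-phosphate in turn. Gpam adds the first chain, Agpat2 the next, Lpin1 removes the phosphate, and Dgat1 or Dgat2 adds the last chain to diacylglycerol. Breakdown runs the other way, with Pnpla2 (adipose triglyceride lipase) removing the first chain, Lipe (hormone-sensitive lipase) cleaving diacylglycerol and Mgll releasing the last chain from monoacylglycerol. White fat cells carry all of these steps at high levels, and most other cells carry them at lower ones.

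The values are the authors' deposited log2 intensities, 1 per feature and array, with array medians of 8.89 or 8.90. Many features sit near that median, close to background, where log2 differences are compressed. Of the 24 probes, 5 had a mean under 8.86, the median over the means of all probes. Probes printed in 8 to 20 spots had a median SD among their spots of 0.17 to 0.20 on the 4 arrays. The 2 brightest sex-linked genes parted the groups. Xist, the RNA of the inactive X chromosome, read 8.97 and 8.96 with sunitinib and 12.19 and 12.26 with vehicle, and the Y-linked Eif2s3y read 10.21 and 10.02 against 8.46 and 8.58. The Y-linked Uty and Kdm5d were near background, each with a difference of 0.095, without overlap for Uty and with overlap for Kdm5d. Treatment and these sex-linked differences therefore cannot be told apart for any enzyme below. In bulk tumour RNA, a change in the number of cells of a type and in RNA per cell cannot be told apart either.

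On brightest probes 7 of the 10 enzymes were higher on both sunitinib arrays, without overlap with vehicle (25.9% of all genes were), and Lpin1 and Gpam were lower without overlap (22.3% of all genes). Dgat2 had the largest difference on a brightest probe, at 1.14 log2 units (SE 0.14, with 2 arrays in each group). Gpd1 (0.84, SE 0.37), Pcx (0.54, SE 0.11), Agpat2 (0.41, SE 0.12), Pnpla2 (0.40, SE 0.15), Dgat1 (0.31, SE 0.09) and Lipe (0.18, SE 0.08) followed. Lpin1 was at -0.38 (SE 0.11), Gpam at -0.10 (SE 0.08) and Mgll at -0.015 (SE 0.15). With 2 arrays in each group, an SE from the arrays of a probe alone equals its SD within groups. That SD was 0.57 for Gpd1 and 0.19 for Dgat2, above their limma SE, and 0.04 for Gpam, below it.

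Of the 24 probes, 14 were higher without overlap between the groups, where 25.5% of all 43154 tested probes were, 5 were lower without overlap (21.6% of all probes), and in 5 the groups overlapped. In limma, 0 of the 24 passed an adjusted p of 0.05 upward (0% of all probes) and 0 downward (0.00232%, 1 Xist probe). At an unadjusted p under 0.05, 10 were higher (7.72% of all probes) and 4 lower (5.7%). Since the genes were taken up with this contrast known, nothing is read from these counts. The median difference was 0.20 over the 24 probes and 0.005 over all probes.

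**Figure D1:**
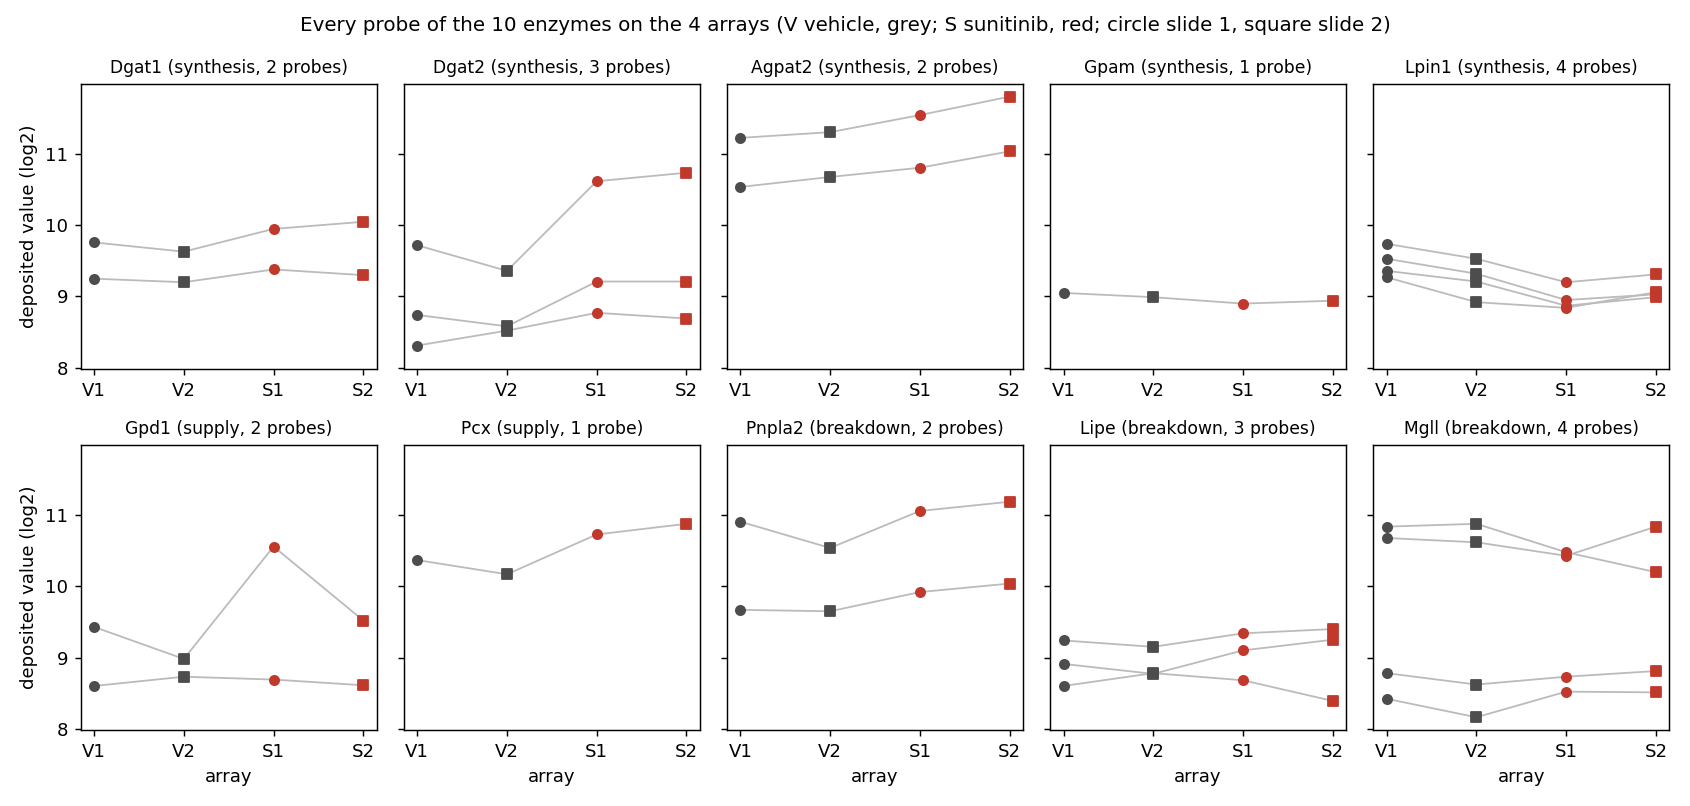
Deposited log2 value (vertical axis) of each of the 24 probes on the 4 arrays (horizontal axis), 1 panel per gene, with vehicle in grey, sunitinib in red, circles for slide 1 and squares for slide 2; lines join the values of a probe. The brightest Dgat2 probe lies at 10.62 and 10.74 with sunitinib and 9.72 and 9.36 with vehicle, while the 2 brightest Mgll probes part on the sunitinib 2 array.

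Promoter sequences are shown for the 4 genes that had RefSeq start windows and whose brightest probe differed by at least 0.3 between the groups, 3 of them higher (Agpat2, Pcx, Pnpla2) and 1 lower (Lpin1). Each window runs from 250 bases before to 50 bases after a start (RefSeq, GRCm38.p6) and is written 5′ to 3′ on the strand of the gene. Of the 10 genes, 7 matched the promoter table, with 11 windows. The others were Dgat1, Dgat2 and Gpd1. Capitals mark motifs found on either strand, namely the E-box CACGTG, the CCAAT box CCAAT, the GC box GGGCGG, the nuclear receptor element AGGTCA, the core of the sterol regulatory element TCACNCCAC and the TATA box TATAAA. Pcx has 2 windows, and the array has 1 probe for the gene, so that its values cannot be assigned to either start.
Agpat2, chr2:26604368-26604667, minus strand: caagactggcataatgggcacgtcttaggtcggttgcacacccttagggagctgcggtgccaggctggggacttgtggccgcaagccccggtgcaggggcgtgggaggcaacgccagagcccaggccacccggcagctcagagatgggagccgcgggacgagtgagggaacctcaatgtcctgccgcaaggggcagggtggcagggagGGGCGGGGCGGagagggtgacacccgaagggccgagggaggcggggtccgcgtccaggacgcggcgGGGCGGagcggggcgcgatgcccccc
Pnpla2, chr7:141454938-141455237, plus strand: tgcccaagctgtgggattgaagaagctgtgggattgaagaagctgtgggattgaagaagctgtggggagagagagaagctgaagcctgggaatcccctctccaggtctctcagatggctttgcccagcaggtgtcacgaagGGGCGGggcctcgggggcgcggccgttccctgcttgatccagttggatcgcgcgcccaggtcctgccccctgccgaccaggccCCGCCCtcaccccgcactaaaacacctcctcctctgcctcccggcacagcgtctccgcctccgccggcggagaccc
Pcx upstream start, chr19:4510222-4510521, plus strand: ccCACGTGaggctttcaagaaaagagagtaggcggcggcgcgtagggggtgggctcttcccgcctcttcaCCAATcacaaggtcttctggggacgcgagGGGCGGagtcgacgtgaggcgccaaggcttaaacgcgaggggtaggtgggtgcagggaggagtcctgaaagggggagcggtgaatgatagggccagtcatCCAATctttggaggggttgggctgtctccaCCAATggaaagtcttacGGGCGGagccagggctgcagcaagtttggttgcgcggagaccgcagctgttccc
Pcx downstream start, chr19:4594069-4594368, plus strand: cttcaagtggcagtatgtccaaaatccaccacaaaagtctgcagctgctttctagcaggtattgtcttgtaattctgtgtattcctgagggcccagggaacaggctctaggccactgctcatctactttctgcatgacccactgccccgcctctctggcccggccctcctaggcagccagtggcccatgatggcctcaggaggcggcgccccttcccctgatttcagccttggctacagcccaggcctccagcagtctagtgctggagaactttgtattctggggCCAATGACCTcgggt
Lpin1, chr12:16610917-16611216, minus strand: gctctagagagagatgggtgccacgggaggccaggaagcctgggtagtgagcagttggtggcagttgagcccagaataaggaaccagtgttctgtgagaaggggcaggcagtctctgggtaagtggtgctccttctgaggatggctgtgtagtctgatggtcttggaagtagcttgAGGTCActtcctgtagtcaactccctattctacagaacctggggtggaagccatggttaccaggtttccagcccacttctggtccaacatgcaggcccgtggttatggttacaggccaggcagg

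The Agpat2 window held 3 GC boxes, 2 of which share a base in its first capital run, and the Pnpla2 window held 2. The upstream Pcx window held 1 E-box, 3 CCAAT boxes and 2 GC boxes. The downstream one held a CCAAT box and, sharing its last base, a nuclear receptor element on the other strand. The Lpin1 window held 1 nuclear receptor element and none of the other motifs. Over the 11 windows of the 7 genes, 7 windows held a GC box (35.7% of all 32851 windows), 3 a CCAAT box (37.4%), 3 an E-box (7.15%) and 3 a nuclear receptor element (16.3%). The sterol element core (1.24% of all windows) and the TATA box (13.6%) were in 0 of the 11. The windows with an E-box belonged to Pcx, Lipe and Mgll, whose brightest probes differed by 0.54, 0.18 and -0.015. GC content ran from 55.3% to 72.3% over the 11 windows, with a median of 52.7% over all windows. A match of letters is a description and not a bound site.

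Among the synthesis enzymes, Dgat2, the acyltransferase that carries much of triglyceride formation in mouse fat and skin, was higher on all of its probes. The brightest probe, whose mean was above that of 84.1% of all probes, read 10.62 and 10.74 with sunitinib and 9.72 and 9.36 with vehicle. That is 2.20-fold on the array's scale. The sunitinib arrays lay close together (0.12 apart) and the vehicle arrays further apart (0.36), with a gap of 0.90 within slide 1 and 1.38 within slide 2. The next probe read 9.21 on both sunitinib arrays and 8.74 and 8.58 with vehicle (difference 0.55, SE 0.09). The dimmest, with a mean above that of 6.83% of probes, read 8.77 and 8.69 against 8.31 and 8.52 (0.32, SE 0.11). All 3 probes kept the groups apart on both slides, and the size of the difference was smaller on the dimmer probes.

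Dgat1, an acyltransferase of another protein family that makes the same product, read 9.95 and 10.05 with sunitinib and 9.76 and 9.63 with vehicle on its brightest probe. The groups were apart by 0.19 on slide 1 and 0.42 on slide 2, and the second probe differed by 0.12 (SE 0.08), less than the spread among spots. The brightest probes of Dgat2 and Dgat1 thus gave 1.14 and 0.31 for the same contrast on the same arrays. Agpat2, the lysophosphatidic acid acyltransferase whose loss in humans causes congenital generalized lipodystrophy, read 11.55 and 11.81 against 11.23 and 11.31. Its second probe read 10.81 and 11.04 against 10.54 and 10.68 (difference 0.32, SE 0.12). Both Agpat2 probes were higher on both slides, with vehicle replicate 1 the lowest array and sunitinib replicate 2 the highest.

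Lpin1, the phosphatidate phosphatase that also acts as a transcriptional coactivator, stood lower. Its brightest probe read 9.20 and 9.31 with sunitinib and 9.74 and 9.53 with vehicle, a difference of -0.54 on slide 1 and -0.22 on slide 2. The next probes differed by -0.44 (SE 0.11) and -0.36 (SE 0.10), again without overlap. On the fourth probe, which is annotated to another accession, the groups overlapped, with 8.84 and 9.06 against 9.27 and 8.92 (difference -0.15, SE 0.15). On each of the 3 probes without overlap vehicle replicate 1 was highest and sunitinib replicate 1 lowest. Gpam, the mitochondrial acyltransferase of the first step, had 1 probe near background. It read 8.90 and 8.94 against 9.05 and 8.99, and this difference of -0.10 was smaller than the spread among spots.

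Of the supply enzymes, Pcx, the pyruvate carboxylase that feeds citrate export and glyceroneogenesis, read 10.73 and 10.88 with sunitinib and 10.37 and 10.17 with vehicle. The difference was 0.36 on slide 1 and 0.71 on slide 2, larger on each than the gap between replicates of a group (0.15 and 0.20). Gpd1, the cytosolic glycerol 3-phosphate dehydrogenase, had a difference whose size depended on 1 array. Its brightest probe read 10.56 on sunitinib replicate 1 and 9.52 on sunitinib replicate 2, against 9.43 and 8.98 with vehicle, so that the groups were barely apart, and the difference was 1.13 on slide 1 and 0.54 on slide 2. The difference of 0.84 became 0.32 without sunitinib replicate 1 and 1.36 without sunitinib replicate 2. The other Gpd1 probe, near background, gave 8.69 and 8.61 against 8.60 and 8.73.

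Among the breakdown enzymes, Pnpla2 was higher on both probes. The brighter read 11.06 and 11.19 with sunitinib and 10.91 and 10.54 with vehicle. On slide 1 that was a difference of 0.15, within the spread among spots, and on slide 2 it was 0.65. The difference of 0.40 became 0.22 without vehicle replicate 2. The other probe read 9.92 and 10.04 against 9.67 and 9.65 (difference 0.32, SE 0.09), with 0.25 and 0.39 on the slides.

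Lipe read 9.34 and 9.40 against 9.24 and 9.15 on its brightest probe and 9.10 and 9.25 against 8.91 and 8.77 on the next (difference 0.34, SE 0.10). Its dimmest probe, annotated to a different accession and near background, overlapped between groups and differed by -0.16 (SE 0.13). Both Lipe probes annotated to a RefSeq accession thus had the groups apart, by small amounts.

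Mgll gave no common direction. Its 2 brightest probes are annotated to the same RefSeq accession and had close means (10.64 and 10.60). One read 10.43 and 10.84 with sunitinib and 10.68 and 10.62 with vehicle, and the other 10.48 and 10.20 against 10.84 and 10.88 (difference -0.52, SE 0.12). On sunitinib replicate 2 the first was the highest and the second the lowest of its 4 values. The brightest changed sign without sunitinib replicate 1 (0.19) and without vehicle replicate 1 (0.015). The 2 dim Mgll probes differed by 0.07 and 0.23.

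**Figure D2:**
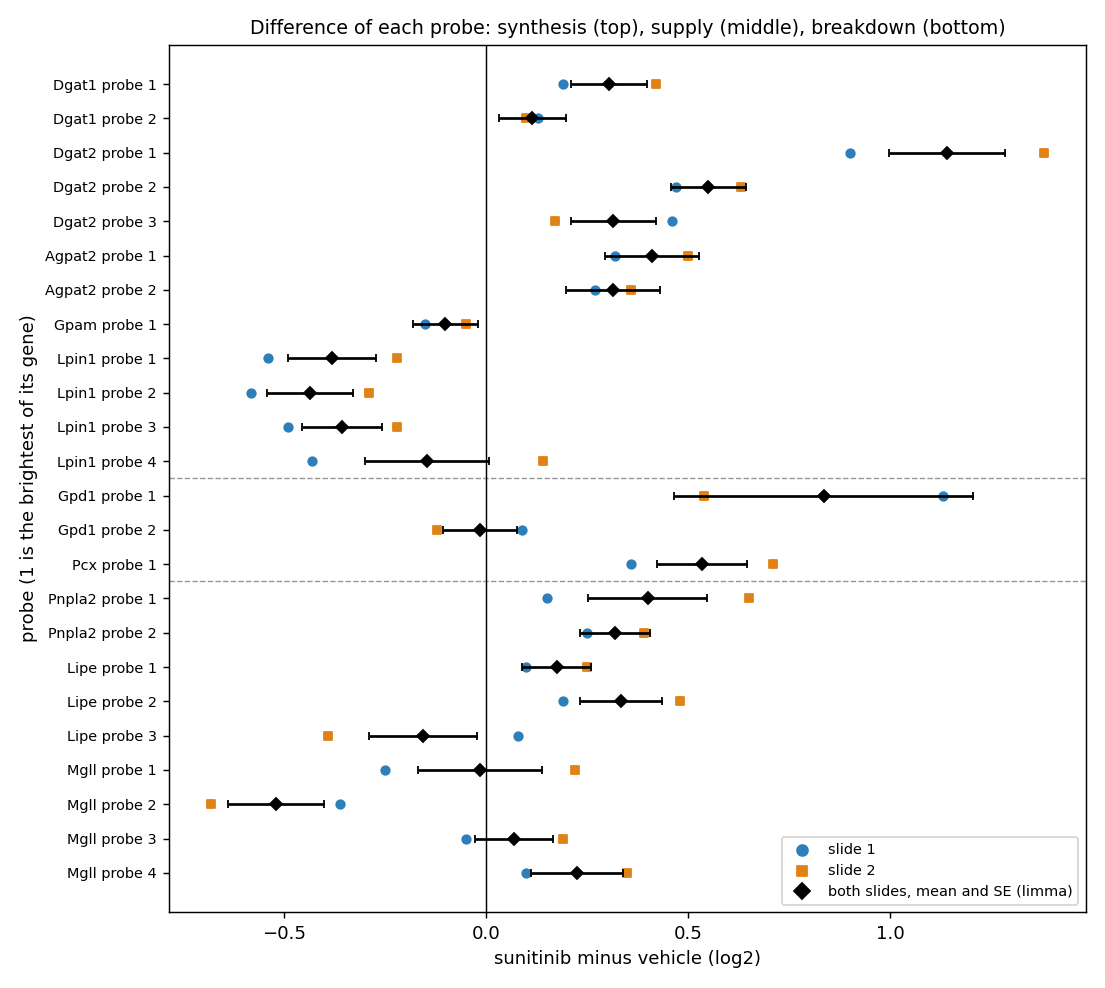
Sunitinib minus vehicle on the log2 scale (horizontal axis) for each of the 24 probes (vertical axis), with the mean over both slides and its limma standard error as a black diamond and bar, slide 1 as a blue circle and slide 2 as an orange square. Every Dgat2 and Agpat2 probe lies above 0 on both slides, 3 of 4 Lpin1 probes lie below 0 on both, and the Mgll probes fall on both sides.

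Set side by side on brightest probes, the 5 synthesis enzymes had a median difference of 0.31 (0.19 on slide 1 and 0.42 on slide 2). The 3 breakdown enzymes had one of 0.18 (0.10 and 0.25). The medians differed by 0.13 over both slides, by 0.09 on slide 1 and by 0.17 on slide 2, and this difference was not tested. These medians are the values of Dgat1 and of Lipe. Over all 12 synthesis probes the median was 0.21 (0.16 on slide 1 and 0.155 on slide 2). Over all 9 breakdown probes it was 0.175 (0.10 and 0.25), so that on slide 2 the breakdown median was the higher. Both groups of enzymes held genes on either side of 0, and the synthesis genes ran from -0.38 to 1.14, against -0.015 to 0.40 for breakdown. With the probes of each gene averaged, the medians were 0.21 and 0.12.

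The arrays contributed unevenly. Of the 14 probes that were higher without overlap, 11 had their lowest value on vehicle replicate 2 and 10 their highest on sunitinib replicate 2, both on slide 2. In 11 of the 14 the difference was larger on slide 2 than on slide 1. Of the 5 probes that were lower without overlap, 4 had their lowest value on sunitinib replicate 1, 4 their highest on vehicle replicate 1, and 1 its larger difference on slide 2. The lower probe with its larger difference on slide 2 was that of Mgll, and 3 of the 5 lower probes belong to Lpin1.

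The other genes of the pathway were taken from 4 lists, of which 64 of 73 genes had a named probe. On brightest probes, 20 were higher without overlap (25.9% of all 19087 genes) and 8 lower without overlap (22.3%). In limma 0 passed upward (0% of all genes) and 0 downward (0.00524%). At an unadjusted p under 0.05, 8 were higher (8.44%) and 2 lower (6.32%). The median difference was 0.05 over the 64 genes and 0.005 over all genes.

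Of 19 other synthesis genes, 6 were higher and 1 lower without overlap, with a median of 0.07. Pck1, the phosphoenolpyruvate carboxykinase of glyceroneogenesis, read 9.87 and 9.92 with sunitinib and 9.27 and 9.15 with vehicle (difference 0.69, SE 0.09), with similar gaps on both slides (0.60 and 0.77). Pck1 acts downstream of Pcx on the route from pyruvate to glycerol 3-phosphate, and both genes had the groups apart in the same direction. The fatty acid transporter Slc27a1 read 9.77 and 10.24 against 9.75 and 9.75, so that its difference of 0.26 (SE 0.17) lay on sunitinib replicate 2, and a second probe differed by 0.005. Agpat1, a relative of Agpat2, differed by 0.22 (SE 0.08) on one probe and by -0.33 (SE 0.12) on another.

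Of 16 other breakdown genes and their regulators, 4 were higher and 4 lower without overlap, with a median of -0.0075. Plin1, the droplet coat protein that restrains lipases until the cell is stimulated, differed by 1.19 (SE 0.14). G0s2, an inhibitor of Pnpla2, read 9.76 and 10.06 against 9.26 and 9.53 (difference 0.52, SE 0.15). Lmf1, which matures lipoprotein lipase, read 10.27 and 9.83 against 10.60 and 10.54 (-0.52, SE 0.16). The list also holds Hilpda, another inhibitor of Pnpla2, and Abhd5, its activator, both named after their values were seen. Hilpda was lower without overlap on both probes (-0.43, SE 0.17, and -0.35, SE 0.15), opposite to G0s2. Abhd5 differed by -0.22 (SE 0.09) on one probe and by 0.06 with overlap on another.

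Of 19 regulators of lipid storage genes, 5 were higher and 2 lower without overlap, with a median of 0.04. Pparg, the nuclear receptor that drives fat cell differentiation, read 9.94 and 9.93 against 9.60 and 9.63 (difference 0.32, SE 0.08). Nr1h3, the oxysterol receptor LXR alpha, differed by 0.23 (SE 0.08). Insig1, which holds SREBP precursors in the endoplasmic reticulum, differed by -0.37 (SE 0.19), almost all of it on slide 2 (-0.07 and -0.66). Of 10 droplet assembly genes, 5 were higher and 1 lower without overlap, with a median of 0.12. Cidec, which fuses droplets, differed by 2.06 (SE 0.33), Bscl2 (seipin) by 0.28 (SE 0.11) and Hsd17b11, a droplet-bound dehydrogenase, by -0.60 (SE 0.12). The second Hsd17b11 probe was also lower without overlap (-0.28, SE 0.10), and the dimmest was higher (0.34, SE 0.12).

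**Figure D3:**
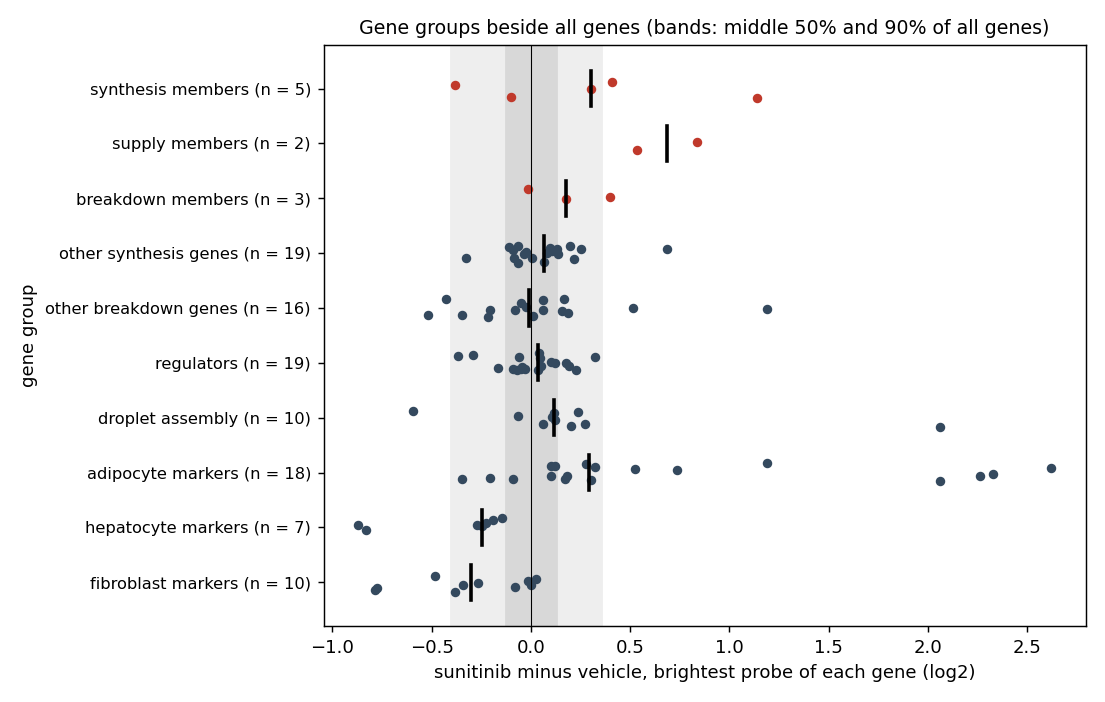
Sunitinib minus vehicle on the log2 scale (horizontal axis) for the brightest probe of each gene, by gene group (vertical axis), with the 10 enzymes in red, other groups in dark blue and the median of each group as a black bar; the shaded bands hold the middle 50% and 90% of all genes. The 5th and 95th percentiles of all genes are -0.40 and 0.36, and Dgat2, Gpd1, Pcx, Agpat2 and Pnpla2 lie above the upper one.

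Markers of fat cells were higher on the same arrays as most of the enzymes. Of 18 measured adipocyte markers, which hold no enzyme of the 10, 12 were higher without overlap (25.9% of all genes) and 1 lower (22.3%), with a median of 0.29. Their summed level on the log2 scale was 15.43 and 15.11 with sunitinib and 14.86 and 14.62 with vehicle. The largest part of that sum was Fabp4, at 14.36 and 13.68 against 13.91 and 13.79. Of the 18 markers, Plin1, Cidec, Cidea, Aqp7, Lpl, Pparg and Cebpa are also on the pathway lists above. Adipoq, the hormone adiponectin, differed by 2.33 (SE 0.21), and Car3, Plin4, Cidec and Plin1 also differed by over 1, each of these 5 by more than Dgat2. All 5 had their lowest value on vehicle replicate 2, as the brightest probes of Dgat2, Pcx and Pnpla2 did. A second Car3 probe, near background, differed by 0.125 with overlapping groups (SE 0.13). The marker that was lower without overlap was Aqp7, at 8.46 and 8.91 against 9.08 and 8.98 (-0.345, SE 0.17). Its second probe differed by 0.065. Fabp4, Lpl and Cebpa differed by 0.17, -0.21 and -0.09 on brightest probes and by 1.00, 0.45 and 0.23 on second ones. Aqp7, Fabp4, Lpl, Cebpa, Lep, Ucp1 and Cidea were named after their values were seen. Lep, a defining hormone of white fat, was near background on every array (8.81 to 8.94), as was Ucp1 of brown fat (8.59 to 8.85). Both are counted among the 12 higher markers, with differences of 0.10 and 0.18. So is Cidea (0.12), which was also near background (8.67 to 8.85). The part of fat cell content in the differences of the enzymes was not tested.

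Other cell types that use these enzymes were examined in the same way. Each count below stands beside 25.9% of all genes higher and 22.3% lower without overlap. Of 15 skeletal muscle markers, 1 was higher and 0 lower without overlap, and their summed level was 13.70 and 13.28 with sunitinib against 13.69 and 12.72 with vehicle. Most muscle markers were lower on slide 2 than on slide 1 in both groups. Tnnc2 differed by 1.03 with overlapping groups (SE 0.57), and Acta1 by 0.14 (SE 0.38). Of 7 hepatocyte markers, 5 were lower without overlap and 0 higher, with Alb at 9.17 and 9.56 against 9.67 and 10.80. The summed level was 11.72 and 11.74 against 11.92 and 12.57. Of 10 sebaceous gland and skin markers, 5 were higher and 4 lower without overlap, all by 0.21 or less, with Krt79 near background (8.66 to 8.90). Their summed level was 12.17 and 12.19 against 12.16 and 12.15. Of 13 mammary epithelium markers, 1 was higher and 3 lower, with summed levels of 14.61 and 14.86 against 14.49 and 14.68. Krt18, at 14.20 and 14.52 against 14.06 and 14.29, makes up most of that sum, while Krt8 read 9.01 to 9.23. Of 8 macrophage markers, 0 were apart, with summed levels of 17.34 and 17.53 against 17.42 and 17.42. Lyz2 was saturated on all 4 arrays, which fixes part of that sum, and Adgre1 differed by 0.28 (SE 0.17). Of 10 fibroblast markers, 6 were lower and 0 higher, with summed levels of 17.91 and 17.86 against 18.08 and 17.97. Col1a1, Col1a2 and Col3a1 lay at or near saturation (15.88 or above on every array) and hold that sum nearly constant. Col1a1 was among the lower markers, at -0.08. Pdgfra differed by -0.79 (SE 0.23), Lum by -0.78 (SE 0.33) and Thy1 by -0.49 (SE 0.12), all 3 named after their values were seen. A second Thy1 probe differed by -0.01. Dcn (-0.85 on slide 1 and 0.17 on slide 2) and Dpt (-0.78 and 0.83) changed sign between slides.

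The profile of Dgat2 over the arrays was compared with those of 12403 other named genes that had a probe brighter than the median. Likeness was the Euclidean distance between the 4 values, each centred on the mean of its probe. The nearest was Plin1 (distance 0.16), followed by Cyp2f2, a cytochrome P450 (0.25), the fatty acid carrier Fabp4 on its second-brightest probe (0.27), Apol6 (0.27) and Eif2s3x (0.31). Fabp4 differed by 1.00 on that probe and by 0.17 on its brightest. Eif2s3x, the X-linked partner of Eif2s3y, differed by 1.11 on the probe concerned and by -0.02 on its next. With 4 arrays, likeness of profile is a description and rests mainly on the difference between the groups.

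**Figure D4:**
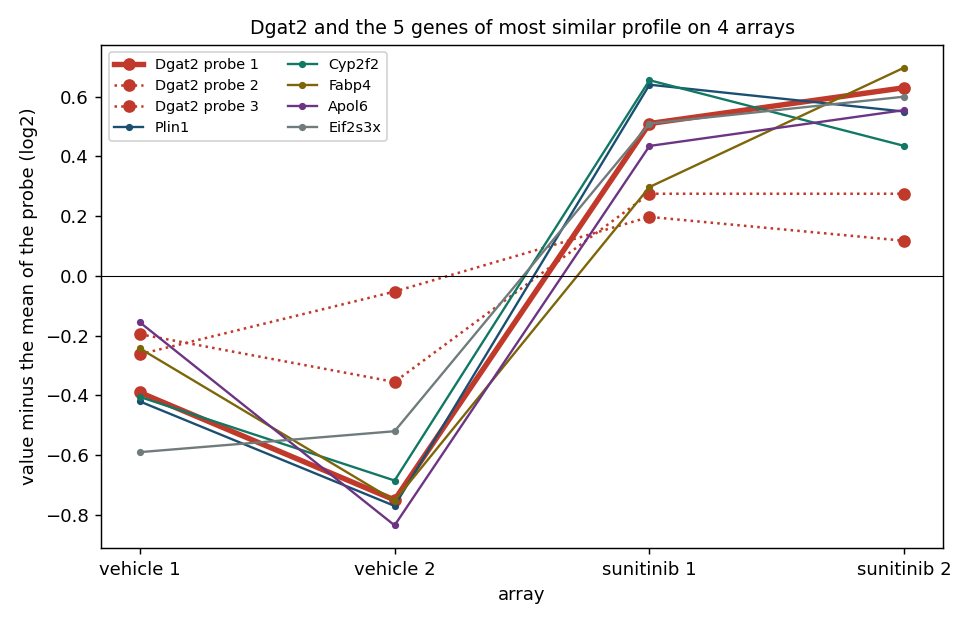
Value minus the mean of the probe on the log2 scale (vertical axis) on the 4 arrays (horizontal axis) for the 3 Dgat2 probes (red, the brightest as a thick line, the others dotted) and the 5 named genes nearest to the brightest. All of these lines are lower on both vehicle arrays than on both sunitinib arrays, and all but Eif2s3x and the dimmest Dgat2 probe are lowest on vehicle replicate 2.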

How the data were processed

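The authors deposited 1 log2 value per feature and array from single-colour (Cy3) arrays, and limma is named per the submitters' processing notes. How background was corrected and arrays were normalized is not given in the sources used here. Values ran from 6.75 to 16.34, as log2 values do, and were used unaltered. RNA input was 0.5 µg per array at a RIN of 9, per the labels. No detection flags were used, and the 4 arrays limit the precision.

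Features were named from the platform annotation, with symbols updated by gene number (99.4% of listed features) in the RefSeq table of GRCm38.p6. Of the features, 33653 had 1 gene, 56 several and 11511 none listed. Repeated spots (8 to 20 each) of 217 probes were replaced by their median, leaving 43154 tested values. In the lists each gene was represented by its brightest probe. Sunitinib was compared with vehicle in limma 3.58.1 (R 4.3.3, lmFit and eBayes), with Benjamini-Hochberg adjustment across the whole table and a threshold of 0.05. The fit was tested on simulated data.

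The 10 genes, the lists and the alternatives were chosen with earlier results of these data known. Named from each pathway list were up to 3 genes of largest difference, if bright (mean over the median probe) and of 1 sign across slides. Named from each marker list were its first gene and those with a difference of at least 1 of 1 sign across slides. The 5 profiles nearest to Dgat2 were named too. The titles place replicates of 1 number on 1 slide, which pairs them, and deviations of arrays on 1 slide correlated at -0.225. Array number on the slide and treatment cannot be told apart.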

Additional observations from a re-analysis of the deposited data

How the results depend on the processing

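The 12 alternatives were the slide as a replicate block, quantile normalization, median centring, leaving out each array in turn, leaving out probes under the 30th percentile, a floor at the 5th percentile, a trended robust prior, 1 value per gene and averaging the probes of a gene. Under none of those that gave a count did a probe of the 10 enzymes or a gene of the 4 pathway lists pass in limma, the replicate block included (medians of 0.305 for synthesis and 0.175 for breakdown). The lowest adjusted p of the enzymes was 0.247, with the trended prior. With averaged probes, the synthesis median was 0.21 rather than 0.31, and Dgat2 differed by 0.67, Dgat1 by 0.21 and Lipe by 0.12. Every enzyme other than Mgll had the same sign on its brightest probe under all alternatives that gave a difference. Leaving out 1 array gave 0.96 to 1.32 for Dgat2, 0.32 to 1.36 for Gpd1 and 0.22 to 0.59 for Pnpla2. A block with crossed replicate numbers, added after the data were seen, gave 0 calls. Over all probes 1 was called in the reported fit, that of the sex-linked Xist, lower with sunitinib. The replicate block gave 0, and the trended prior gave 4 higher and 2 lower. Leaving out an array, or a block, left 1 residual degree of freedom, a lone array being taken to vary like the other group, and dim probes compress differences.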
